A study of Homo sapiens with 9 samples.

Results

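RNA-seq values of the genes that encode the respiratory chain and ATP synthase were analysed in MDA-MB-231 cells, an established human cell line of triple-negative breast cancer (TNBC), after 24 h without or with 2-deoxy-D-glucose (2-DG), a form of glucose that cells import but cannot break down, so that it blocks glycolysis. The members were found by gene name. Names starting with NDUFA, NDUFB, NDUFC, NDUFS or NDUFV, UQCR, COX4 to COX8, ATP5, MT-ND, MT-CO, MT-CYB or MT-ATP were taken, together with SDHA, SDHB, SDHC, SDHD and CYC1. Of 285 matching names, 175 were dropped because they ended in P and a number, the usual form of a pseudogene name, or held a hyphen outside the MT- prefix. MT-ATP6 and MT-ATP8 end in P and a number as well and were kept, since they are named by the rule and are genes of mitochondrial DNA. This left 110 of the 61552 genes in the files, 97 encoded in the nucleus and 13 in mitochondrial DNA. By name, 8 of the 97 (NDUFAF1 to NDUFAF8) are assembly factors of complex I and not subunits, and they are described apart. Cells of all groups were wild type and were grown in DMEM with fetal calf serum. The control group received phosphate-buffered saline without 2-DG, and the treated groups received 10 mM or 20 mM 2-DG, with 3 libraries per group. The groups come from a single cell line. Nothing in the labels says that the libraries of a group came from separate cultures. The p-values therefore rest on the spread between these libraries, which may be technical, and on variances shared across genes.

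The respiratory chain sits in the inner mitochondrial membrane. Complex I takes electrons from NADH and complex II takes them from succinate. Complex III passes them to cytochrome c, and complex IV passes them on to oxygen. The proton gradient built by complexes I, III and IV drives complex V, the ATP synthase. All subunits of complex II are encoded in the nucleus, while the other complexes are built from subunits of both genomes. The mitochondrial genes are transcribed as long precursor RNAs that are cut into the single messenger RNAs, whereas each nuclear gene has its own promoter. Many cancer cells rely on glycolysis for much of their ATP, and when glycolysis is blocked the respiratory chain is the other main source.

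The libraries held between 30974968 and 40843638 reads on genes, recovered from the deposited FPKM values, which scale reads by the length of the gene and by the reads of the library. VIM lay between 243 and 313 FPKM and the other mesenchymal markers CD44, CAV1 and AXL at 52.9 FPKM or more, while ESR1 and PGR stayed at 0.0204 FPKM or less. CDH1 did not exceed 0.417 FPKM, but EPCAM reached 4.51 and ERBB2 9.11 FPKM. The leukocyte marker PTPRC and the hepatocyte marker ALB lay at 0.0410 FPKM or less, and the endothelial marker PECAM1 between 0.826 and 1.95 FPKM. Of these markers CD44, CAV1, CDH1, ERBB2, PECAM1 and PTPRC were lower in every treated library than in the control, and their part in the results was not tested. The 3 libraries at 10 mM 2-DG differed most among themselves. Their recovered reads differed by 26.4 to 56.7 times the sampling variance per gene, against 14.1 to 21.5 in the control and 4.66 to 6.57 at 20 mM. FPKM is a share of the library, so that less RNA of a gene per cell and more RNA of other genes cannot be told apart.

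Most nuclear-encoded genes lay slightly lower under 2-DG, and the mitochondrially encoded genes lay on both sides of the control. Of the 97 nuclear genes, 88 had enough reads to be tested. At 20 mM 2-DG the log2 fold change of FPKM + 1 was below 0 for 76 of the 88, with a median of -0.22, where the median over all 16571 genes tested was -0.02. With a Benjamini-Hochberg adjusted p under 0.05 in limma's test (a linear model with variances shared across genes), 28 of the 88 (31.8%) were lower and 2 were higher. Among all genes tested, 21.6% were lower and 15.3% were higher by the same rule. At 10 mM 2-DG, 75 of the 88 were below 0, with a median of -0.17, and 22 were lower and 3 higher, where 17.5% of all genes were lower and 12.1% higher. The 20 mM libraries all lay below the 3 control libraries for 52 of the 88 genes and all above them for 6, against 29.9% and 23.3% of all genes. At 10 mM these counts were 24 and 4, against 22.7% and 17.8%. The threshold of the study for a differentially expressed gene (DEG) was p under 0.05 with an absolute log2 fold change over 1, by DESeq2. Here it was set on limma's unadjusted p and the fold change of FPKM + 1, which understates changes. None of the 101 tested members, nuclear and mitochondrial, passed it, where 2.92% of all genes did at 20 mM and 1.74% at 10 mM. NDUFAF3, with -0.97 at 20 mM, came close, and the added 1 may have kept it from passing.

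The nuclear members lay at higher levels than most genes, with a median of 23.3 FPKM over the 9 libraries against 2.46 FPKM for all genes tested. Among the other 4174 genes with mean levels between the quartiles of the nuclear members (7.11 and 54.5 FPKM), 1236 (29.6%) were lower at 20 mM, close to the 31.8% of the members. Their median was -0.04, against -0.22 for the members. At 10 mM, 1072 of these 4174 genes (25.7%) were lower, a share no smaller than that of the members (22 of 88). The medians at 10 mM were -0.04 and -0.17. All 10 mM libraries lay below the control for 1202 of the 4174 genes, again no smaller a share than in the members (24 of 88). At 20 mM this held for 1584 of the 4174 genes and for 52 of the 88 members, a larger share of the members. The count of lower genes also depended on the scaling. When the FPKM values were rescaled by median-ratio factors, 15 of the 88 (17.0%) were lower and 3 were higher at 20 mM, where 18.5% of all genes were lower, and the median was -0.17. At 10 mM the same scaling left 17 of the 88 (19.3%) lower, where 2487 of 16571 genes were, with a median of -0.14. Leaving out the third 20 mM library gave 13 lower genes at 20 mM (14.8%, against 17.5% of all genes). Without the first control library there were 16 (18.2%, against 19.4%). Without the first 20 mM library there were 17 (19.3%, against 16.6%), and without the third control library 18 (20.5%, against 18.0%). Without the second 10 mM library 38 genes were lower at 10 mM (43.2%, against 17.2%). At 20 mM, 12 nuclear genes were lower in limma's test under every alternative setting and with every library left out, except under the fold-change threshold. They are NDUFB3, NDUFB4, NDUFB6, NDUFAF3, UQCR11, UQCRQ, ATP5F1A, ATP5F1B, ATP5F1C, ATP5MC3, ATP5PD and ATP5IF1. COX7A2L was the only member higher at 20 mM under the same 18 alternatives. The calls of the other genes at 20 mM were each lost under at least 1 of them. Genes outside the members were not counted in this way. These 12 genes and COX7A2L therefore have no share over all genes beside them.

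**Figure D1:**
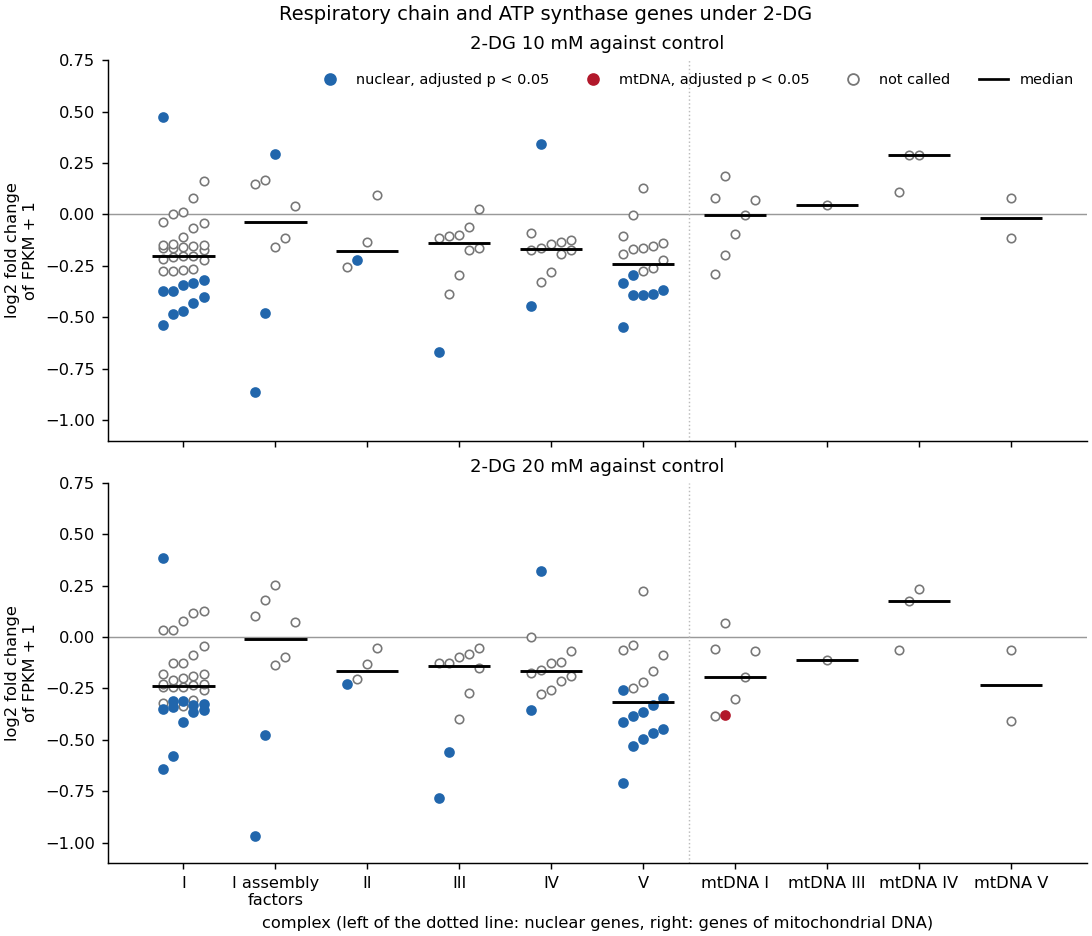
Log2 fold change of FPKM + 1 (y axis) for each tested gene, by complex (x axis), at 10 mM (top) and 20 mM 2-DG (bottom) against control. Filled points had an adjusted p under 0.05, bars are medians. The medians of nuclear complexes I to V lie below 0 at both doses, the lowest being that of nuclear complex V at 20 mM (-0.31), while the mitochondrially encoded complex IV genes have medians of 0.29 and 0.17.

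The summed values show the same shift by library. The nuclear members took 0.986%, 0.865% and 0.931% of the reads in the control libraries, 0.710%, 0.885% and 0.780% at 10 mM and 0.794%, 0.799% and 0.770% at 20 mM 2-DG. The 20 mM libraries were all below the control, while the second 10 mM library lay within the control range. The 13 mitochondrial genes took 6.93%, 6.54% and 7.10% of the reads in the control, 6.85%, 7.43% and 8.69% at 10 mM and 7.01%, 7.12% and 6.84% at 20 mM. Here the control and the 20 mM libraries overlapped and the third 10 mM library was highest. The ratio of summed mitochondrial to summed nuclear FPKM was 16.9 ± 0.943 (SD, n = 3) in the control, and it was 21.9 ± 3.32 with 10 mM and 19.7 ± 0.154 with 20 mM 2-DG, with no overlap between the control and either dose. The members were chosen with these data known, and the sums and their ratio are given as a description.

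**Figure D2:**
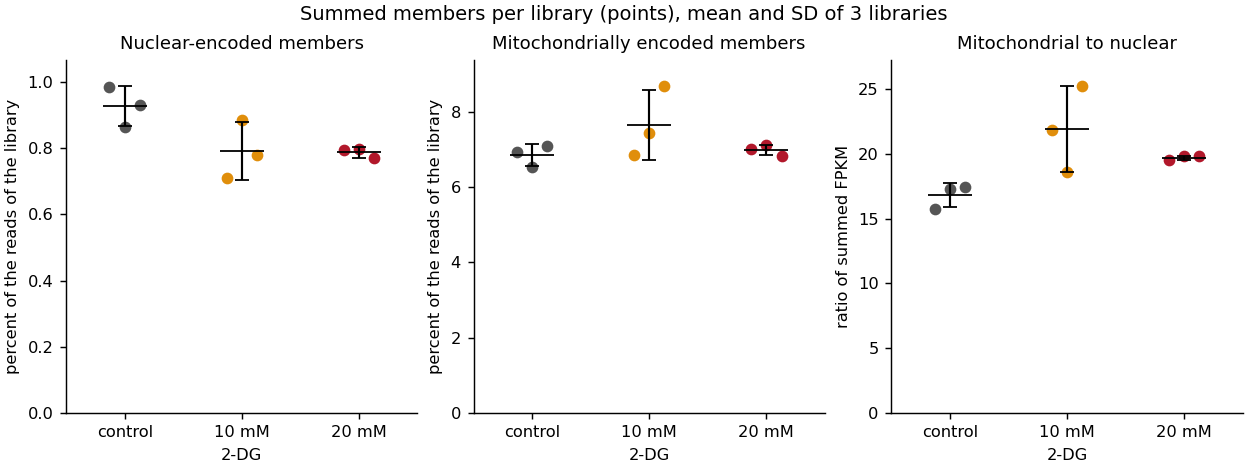
Share of each library's reads on the nuclear-encoded (left) and the mitochondrially encoded genes (middle), in percent, and the ratio of their summed FPKM (right). Points are libraries, bars the mean ± SD of 3. The nuclear share lies between 0.770% and 0.799% at 20 mM, below the control, and the mitochondrial share between 6.84% and 7.12%, overlapping it.

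Complex I held 36 tested nuclear subunit genes. At 20 mM 2-DG 11 were lower and 1 was higher, with a median of -0.24. The lower share was 30.6%, against 21.6% of all genes but close to the 29.6% of other genes at the middle levels of the nuclear members. At 10 mM 10 were lower (27.8%, against 17.5% and 25.7%) and 1 was higher, with a median of -0.20. The count at 20 mM was 3 under median-ratio scaling and 4 without the filter on reads. It was 4 without the third 20 mM library or the first control library, 6 without the first 20 mM library, 7 without the second 20 mM library or the third control library and 18 without the second 10 mM library. At 10 mM it was 6 without the filter on reads or without the first control library and 16 without the second 10 mM library. Among all genes, 18.5% were lower at 20 mM under median-ratio scaling and 8.86% without the filter. Without the second 10 mM library 22.9% were, and without the other libraries named here 16.6% to 19.4%. At 10 mM these shares were 6.75% without the filter, 14.9% without the first control library and 17.2% without the second 10 mM library. The largest falls in complex I were in the NDUFB genes, accessory subunits of the membrane arm. NDUFB3 (ENSG00000119013, chr2:201071433-201085750 in GRCh38) had 21.9, 18.8 and 25.05 FPKM in the control, 12.2, 17.5 and 14.9 at 10 mM and 14.1, 13.1 and 13.5 at 20 mM. Both doses lay wholly below the control. NDUFB3 shares 218 exon bases with a gene on the other strand. The log2 fold change was -0.64 ± 0.13 (SE, n = 3 per group) at 20 mM (adjusted p = 0.00329 in limma's test) and -0.54 ± 0.13 at 10 mM (adjusted p = 0.0109). NDUFB6 (ENSG00000165264, chr9:32552999-32573184) had 32.3, 27.6 and 33.7 FPKM in the control, 21.4, 23.0 and 22.2 at 10 mM and 21.97, 20.9 and 18.9 at 20 mM, a log2 fold change of -0.58 ± 0.08 at 20 mM (limma, adjusted p = 0.00054). Again no treated library reached the control. NDUFB1 fell from 18.6 ± 1.47 FPKM to 13.7 ± 1.203 at 20 mM (log2 fold change -0.41, adjusted p = 0.0205 in limma's test).

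The other lower subunits of complex I at 20 mM were NDUFB4, NDUFB5, NDUFB10, NDUFA2, NDUFA3, NDUFA6, NDUFS3 and NDUFV1, with log2 fold changes between -0.36 and -0.31. NDUFV1 and NDUFS3 belong to the 7 core subunits that carry out electron transfer, of which 2 were lower and 1 was higher, while 9 of 29 accessory subunits were lower. The lower shares were 28.6% and 31.0%, against 21.6% of all genes and 29.6% of other genes at the middle levels of the nuclear members. The higher core gene was NDUFV2, which had 0.519, 0.845 and 0.742 FPKM in the control, 1.72, 1.12 and 1.26 at 10 mM and 1.30, 1.18 and 1.16 at 20 mM. All treated libraries lay above the control, with log2 fold changes of 0.47 (adjusted p = 0.00986) and 0.38 (adjusted p = 0.0208) in limma's test. NDUFV2 rested on only 948 reads in all 9 libraries and shares 771 exon bases with another annotated gene on its strand, and how reads over these bases were counted is not given in the sources used here. NDUFA7, the remaining subunit gene, had 32 reads in all and was not tested.

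Among the 8 assembly factors, which help to build complex I and leave it afterwards, 2 were lower and none was higher at 20 mM, with a median of -0.01. NDUFAF3 (ENSG00000178057, chr3:49020459-49023495) had the largest fall of all members, and shares 527 exon bases with a gene on the other strand. It had 32.6, 24.5 and 26.3 FPKM in the control, 13.3, 18.5 and 13.0 at 10 mM and 14.0, 14.2 and 12.8 at 20 mM. The treated libraries were all below the control, by -0.86 ± 0.14 at 10 mM (adjusted p = 0.00128) and -0.97 ± 0.14 at 20 mM (adjusted p = 0.000469) on the log2 scale in limma's test. NDUFAF8 fell from 25.5 ± 2.11 to 18.0 ± 1.17 FPKM at 20 mM (log2 fold change -0.48, adjusted p = 0.0173). In the opposite direction, NDUFAF2 went from 5.45 ± 0.486 FPKM in the control to 6.90 ± 0.811 at 10 mM, where it passed limma's test (log2 fold change 0.29, adjusted p = 0.044), and to 6.67 ± 0.466 at 20 mM, where it did not (0.25, adjusted p = 0.0638).

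Of the 4 genes of complex II, SDHC, a membrane anchor, was lower. It had 25.7, 30.7 and 28.95 FPKM in the control, 23.8, 25.96 and 22.9 at 10 mM and 24.4, 24.8 and 23.0 at 20 mM. The change was small, -0.23 ± 0.07 at 20 mM (adjusted p = 0.0368) and -0.22 ± 0.07 at 10 mM (adjusted p = 0.0487) in limma's test, and the second 10 mM library overlapped the control. Under median-ratio scaling SDHC was not called at either dose, and at 20 mM its call was also lost without each of the 20 mM libraries, the second control library or the third control library. SDHA, the flavoprotein that oxidizes succinate, had a log2 fold change of -0.20 at 20 mM and SDHD, the other anchor, of -0.13. SDHB, the iron-sulfur subunit, was at 54.7 ± 3.92 FPKM in the control and 52.6 ± 2.27 at 20 mM. None of these 3 genes passed the test.

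In complex III, 2 of 10 genes were lower at 20 mM, a share of 20.0% that is no higher than the 21.6% of all genes. Both encode small subunits, and the median of the 10 was -0.14. UQCR11 (ENSG00000127540, chr19:1597172-1605490, minus strand) had 12.8, 10.4 and 9.63 FPKM in the control, 5.69, 8.04 and 5.89 at 10 mM and 5.74, 5.86 and 6.06 at 20 mM. Each treated library was lower than each control, and from the control to 20 mM the mean fell by 46.2%. It shares 235 exon bases with another annotated gene on its strand. The log2 fold change was -0.67 ± 0.13 at 10 mM (adjusted p = 0.00381) and -0.78 ± 0.13 at 20 mM (adjusted p = 0.0011) in limma's test. UQCRQ had 30.1, 26.8 and 29.8 FPKM in the control, 18.1, 28.6 and 20.1 at 10 mM and 19.1, 19.2 and 19.5 at 20 mM. The second 10 mM library sat among the controls, and the gene passed limma's test at 20 mM (-0.56 ± 0.13, adjusted p = 0.00883) and not at 10 mM (adjusted p = 0.0552). The log2 fold changes of the core proteins UQCRC1 and UQCRC2, of the Rieske iron-sulfur protein UQCRFS1 and of CYC1, which encodes cytochrome c1, lay between -0.15 and -0.05 at 20 mM and did not pass the test.

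In complex IV, 1 of 12 tested nuclear genes was lower and 1 was higher at 20 mM, with a median of -0.17, where 21.6% of all genes were lower. COX8A, a small subunit, had 217, 193 and 194 FPKM in the control, 135, 179 and 132 at 10 mM and 160, 157 and 154 at 20 mM. No treated library reached the control, and the log2 fold change was -0.36 ± 0.11 at 20 mM (limma, adjusted p = 0.0263). The call of COX8A at 20 mM was lost under median-ratio scaling, without the filter on reads, without the first control library and without each of the 20 mM libraries. COX7A2L (ENSG00000115944, chr2:42333546-42425088, minus strand), which binds complex IV to complex III in supercomplexes, had 13.1, 11.7 and 13.5 FPKM in the control, 15.6, 16.5 and 17.0 at 10 mM and 16.2, 16.4 and 15.9 at 20 mM. All treated libraries were above the control, by 0.34 ± 0.07 at 10 mM (adjusted p = 0.00419) and 0.32 ± 0.07 at 20 mM (adjusted p = 0.00414) on the log2 scale in limma's test. Its relative COX7A2, an isoform of the complex itself, had 66.6 ± 4.73 FPKM in the control and 58.3 ± 3.42 at 20 mM, a log2 fold change of -0.19 that did not pass (adjusted p = 0.179).

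The complex IV isoforms known from heart and muscle, testis or lung were at or near 0. COX4I2, COX6A2 and COX8C had 0 reads in all 9 libraries, where a count of 0 allows up to 3 reads of the 30974968 to 40843638 in a library. COX6B2, COX7A1 and COX7B2 had 26, 51 and 34 reads in all and did not exceed 0.551 FPKM, and NDUFA4L2, the hypoxia-related relative of the complex IV subunit NDUFA4, had 49 reads and at most 0.104 FPKM. Their widely expressed counterparts were read deeply. COX4I1 had 61.5 ± 5.43 FPKM in the control, COX6A1 50.7 ± 5.28, COX6B1 149 ± 17.5, COX7B 42.8 ± 3.53 and NDUFA4 32.4 ± 3.55, and at 20 mM their log2 fold changes lay between -0.26 and 0.00, none past the test. With NDUFA7 and ATP5MGL, an ATP synthase g relative with 9 reads in all, these make up the 9 genes that were not tested. Nothing can be said of a change in them.

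**Figure D3:**
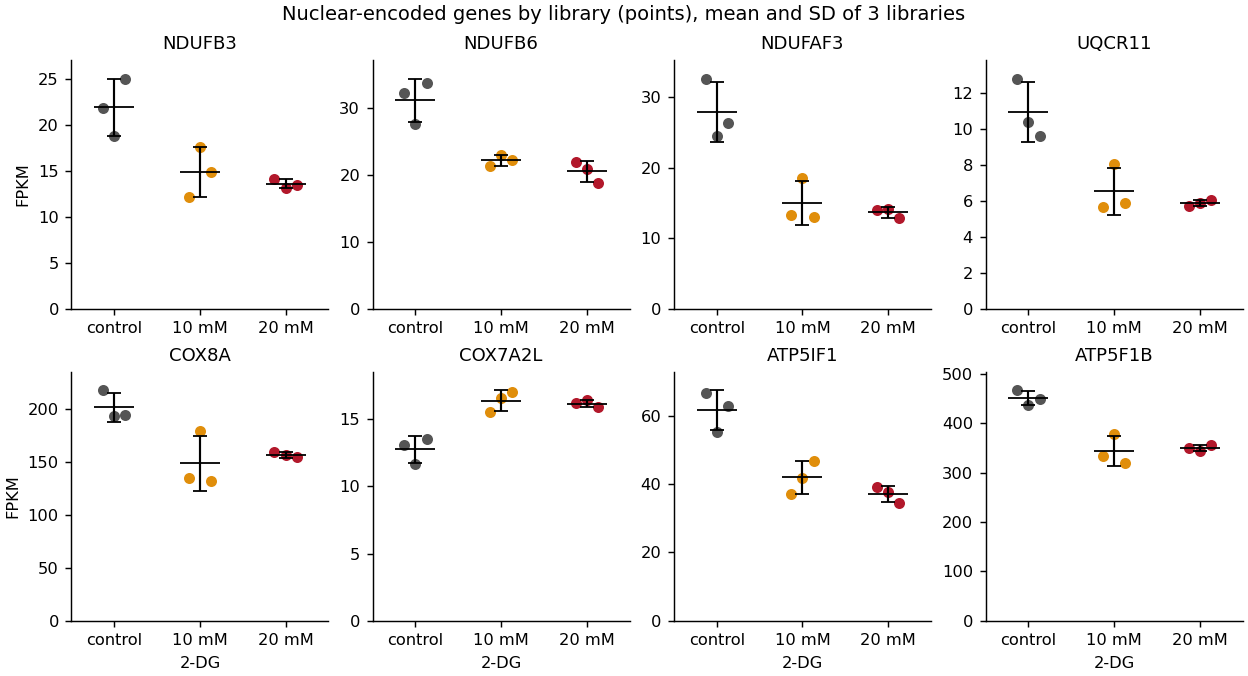
FPKM (y axis, from 0) of 8 nuclear-encoded genes in the control and at 10 mM and 20 mM 2-DG. Points are libraries and bars the mean ± SD of 3. For 7 of the 8 genes every treated library lies below the controls, and for COX7A2L every treated library lies above them, between 15.6 and 17.0 FPKM.

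In complex V, 11 of 18 tested genes were lower at 20 mM 2-DG and none was higher, with a median of -0.31. The lower share was 61.1%, against 21.6% of all genes and 29.6% of other genes at the middle levels of the nuclear members. At 10 mM 7 of 18 were lower (38.9%, against 17.5% and 25.7%), with a median of -0.24. The count at 20 mM was 6 without the third 20 mM library, 7 without the third control library or without the filter on reads, and 8 under median-ratio scaling. Among all genes the lower shares under these settings, in the same order, were 17.5%, 18.0%, 8.86% and 18.5%. The largest fall in complex V was in ATP5IF1 (ENSG00000130770, chr1:28236109-28246906), the inhibitor that stops the enzyme from running in reverse and is not part of its catalytic core. It had 66.6, 55.2 and 62.9 FPKM in the control, 37.1, 41.9 and 46.9 at 10 mM and 39.2, 37.7 and 34.5 at 20 mM. The treated libraries were all lower, by -0.55 ± 0.10 at 10 mM (adjusted p = 0.00242) and -0.71 ± 0.10 at 20 mM (adjusted p = 0.000358) on the log2 scale in limma's test.

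Subunits of the catalytic head and its rotor fell too, and the 5 described here were named after their values were seen. ATP5F1B, the beta subunit that makes ATP, had 467, 438 and 449 FPKM in the control, 333, 378 and 320 at 10 mM and 350, 344 and 355 at 20 mM, a log2 fold change of -0.37 ± 0.08 at 20 mM (limma, adjusted p = 0.00431). ATP5F1A, the alpha subunit, changed by -0.30 ± 0.06 (adjusted p = 0.00447) and ATP5F1C, the rotating gamma subunit, by -0.45 ± 0.08 (adjusted p = 0.00192). For all 3 the doses were apart from the control. The delta and epsilon subunits, which turn with gamma, did not pass the test, with log2 fold changes of 0.22 for ATP5F1D (adjusted p = 0.146) and -0.06 for ATP5F1E (adjusted p = 0.724). In the stalk, ATP5PD fell from 20.6 ± 1.61 to 14.3 ± 0.406 FPKM (-0.50 ± 0.09, limma, adjusted p = 0.00192) and ATP5PF from 17.6 ± 1.78 to 11.9 ± 0.754 (-0.53 ± 0.17, adjusted p = 0.0317), a call that median-ratio scaling removed.

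ATP5MC1, ATP5MC2 and ATP5MC3 encode the same mature c subunit of the membrane ring with different import signals, and they did not give the same call. ATP5MC1 had 30.3 ± 3.11 FPKM in the control and 21.6 ± 2.05 at 20 mM (log2 fold change -0.47, adjusted p = 0.0124 in limma's test), and ATP5MC3 had 62.5 ± 4.46 and 47.7 ± 2.31 (-0.38, adjusted p = 0.00415). ATP5MC2 had 39.9 ± 3.02 and 35.5 ± 1.39 (-0.16, adjusted p = 0.23). ATP5MF, ATP5MG and ATP5PB were the remaining lower genes, with log2 fold changes of -0.33, -0.41 and -0.26. A difference between members was not tested.

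The 13 mitochondrially encoded genes, all with 158721 reads or more in the 9 libraries, gave few calls. At 20 mM 2-DG 1 gene was lower (7.69%, against 21.6% of all genes) and none was higher in limma's test. The median log2 fold change was -0.07 and 10 of the 13 were below 0. At 10 mM none was called, 1 gene had an unadjusted p under 0.05 (40.4% of all genes did) and the median was 0.07. Without the third 10 mM library this median was -0.05, with 9 of the 13 genes below 0, and without the first it was 0.19. With limma-voom on the recovered reads, MT-CO1 and MT-CO2 were called higher and MT-ND5 lower at 10 mM, and MT-CO1 higher and MT-ND5 and MT-ND6 lower at 20 mM. The gene that passed limma's test on FPKM was MT-ND5 (chrM:12337-14148), a proton-pumping subunit of complex I. It had 1783, 1913 and 2091 FPKM in the control, 1653, 1339 and 1771 at 10 mM and 1485, 1455 and 1494 at 20 mM. Both doses lay below every control library. The log2 fold change was -0.29 ± 0.13 at 10 mM (adjusted p = 0.119) and -0.38 ± 0.13 at 20 mM (adjusted p = 0.0391), and under median-ratio scaling MT-ND5 was not called. The call was also lost without the second control library, without the third control library and without each of the 20 mM libraries.

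Among the other subunits of complex I, MT-ND6 went from 1465 ± 259 FPKM in the control to 1113 ± 35.8 at 20 mM, MT-ND3 from 2552 ± 431 to 2054 ± 96.0 and MT-ND2 from 4049 ± 322 to 3531 ± 133, each with all 20 mM libraries below the control but without passing the test. MT-ND6 is the only one of the 13 that lies on the other strand of the circle, and whether the counting used strand is not given in the sources used here. MT-ND1 and MT-ND4L overlapped with the control, and MT-ND4 lay just above it, at 7507 ± 310 and 7853 ± 56.8 FPKM. MT-CYB of complex III had 3264 ± 70.4 FPKM in the control and 3019 ± 49.6 at 20 mM. Of the complex IV genes, MT-CO1 and MT-CO2 lay above the control at 20 mM and MT-CO3 overlapped it. MT-CO1 had 8922, 8779 and 9075 FPKM in the control, 10089, 10687 and 11959 at 10 mM and 10293, 10727 and 10452 at 20 mM. All treated libraries were above the control, yet the log2 fold changes of 0.29 ± 0.20 and 0.23 ± 0.20 did not pass limma's test (adjusted p = 0.305 and 0.385). These SEs take in the variance of other genes at similar levels, so they are not the spread of MT-CO1 alone. With limma-voom on the recovered reads MT-CO1 was called higher at both doses. MT-CO2 had 16284 ± 943 FPKM in the control and 18361 ± 676 at 20 mM, and MT-CO3 10025 ± 678 and 9570 ± 223. In all, the 20 mM libraries lay apart from the control for 6 lower and 3 higher mitochondrial genes, against 29.9% and 23.3% of all genes.

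**Figure D4:**
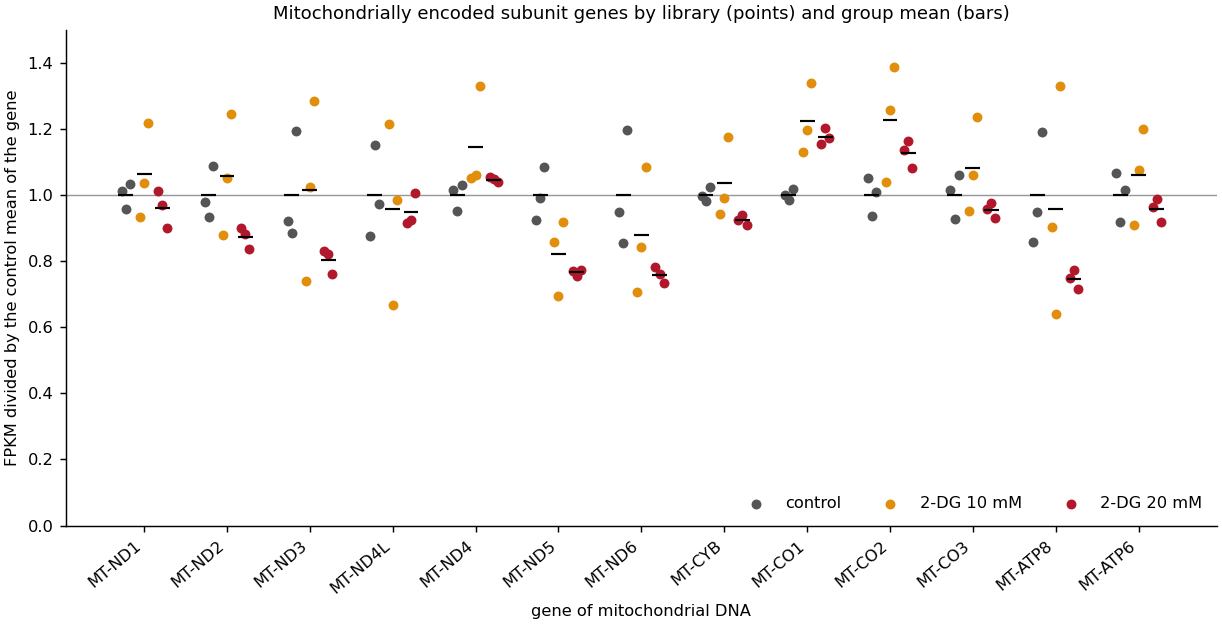
FPKM of the 13 mitochondrially encoded genes divided by the control mean of each gene (y axis, from 0), by library. Points are libraries and bars group means. The 20 mM points of MT-CO1 and MT-CO2 lie above the controls and those of MT-ND5, MT-ND6 and MT-ATP8 below them, and the 10 mM points spread most.

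The ratio of MT-CO1 to MT-ND5, chosen after the values were seen and given as a description, was 5.00, 4.59 and 4.34 in the control, 6.10, 7.98 and 6.75 at 10 mM and 6.93, 7.37 and 6.99 at 20 mM. All treated libraries were above the control. Both genes are read from the same strand of mitochondrial DNA, in 1 precursor RNA. Summed over the complex IV and complex I genes of mitochondrial DNA, the ratio was 1.46 ± 0.0819 in the control and 1.71 ± 0.0403 at 20 mM. MT-RNR2, the large ribosomal RNA, had 3355, 3206 and 4146 FPKM in the control, 4669, 5116 and 5977 at 10 mM and 5170, 5166 and 5099 at 20 mM, and rose by 0.56 at 10 mM (adjusted p = 0.0307) and by 0.54 ± 0.17 at 20 mM (adjusted p = 0.0302) on the log2 scale in limma's test. MT-RNR1, the small one, did not pass (0.09, adjusted p = 0.503). The libraries were made with a kit for messenger RNA, and the part of RNA capture in the ribosomal RNA values was not tested. Nuclear copies of the ribosomal RNA genes were not counted.

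Of the messenger RNAs of mitochondrial DNA, 2 carry a pair of overlapping reading frames each. The sequences are shown because reads over the shared bases belong to both genes of a pair. They are from GENCODE release 29 (GRCh38), plus strand, with the shared bases in capitals, and cover the end of the first gene and the start of the second, chrM:8507-8572 and chrM:8527-8592 for MT-ATP8 and MT-ATP6 and chrM:10740-10766 and chrM:10760-10786 for MT-ND4L and MT-ND4.
MT-ATP8: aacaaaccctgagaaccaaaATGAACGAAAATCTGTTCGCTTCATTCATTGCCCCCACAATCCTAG
MT-ATP6: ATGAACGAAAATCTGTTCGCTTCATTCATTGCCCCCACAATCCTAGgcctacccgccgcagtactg
MT-ND4L: cataacctaaacctactccaATGCTAA
MT-ND4: ATGCTAAaactaatcgtcccaacaatt
The genes of the first pair share 46 bases and those of the second share 7. MT-ATP8, a gene of 207 bases, had 2293, 2532 and 3180 FPKM in the control, 2411, 1709 and 3546 at 10 mM and 2001, 2061 and 1909 at 20 mM, with the 20 mM libraries below the control and the 10 mM libraries on both sides of it (log2 fold change at 20 mM -0.41 ± 0.24, adjusted p = 0.21 in limma's test). MT-ATP6 had 11777 ± 871 FPKM in the control and 11268 ± 406 at 20 mM. The ratio of the genes of a shared messenger RNA varied between libraries. MT-ATP8 to MT-ATP6 was between 0.183 and 0.266 in the control, between 0.135 and 0.251 at 10 mM and between 0.176 and 0.177 at 20 mM. MT-ND4L to MT-ND4 was between 0.459 and 0.645, between 0.337 and 0.617 and between 0.464 and 0.517. The second 10 mM library was lowest in both ratios. The 20 mM libraries lay below the control in the first ratio and within its range in the second.

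**Figure D5:**
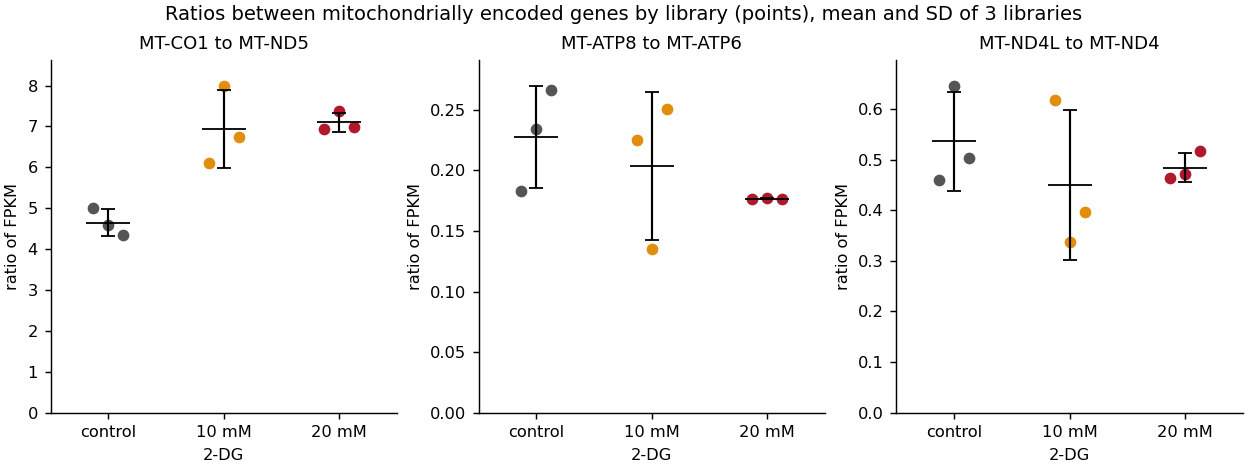
Ratio of FPKM (y axis, from 0) of MT-CO1 to MT-ND5 (left), MT-ATP8 to MT-ATP6 (middle) and MT-ND4L to MT-ND4 (right), by library. Points are libraries, bars the mean ± SD of 3. MT-CO1 to MT-ND5 goes from 4.64 in the control to 6.95 and 7.10, with no overlap, while the ratios within a shared messenger RNA overlap between control and 10 mM.

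The files also list nuclear copies of the mitochondrial genes under pseudogene names, which no rule took as members. Reads on the copies of MT-ATP6 came to between 11.3% and 13.3% of those on MT-ATP6 itself, nearly all on MTATP6P1, and those on the copies of MT-CO1 to between 1.88% and 2.79%. For the other 11 genes the copies took at most 0.740%. Of the nuclear members, 48 of 97 have pseudogene names among the dropped ones, and all dropped names together held between 0.107% and 0.152% of the reads of the nuclear members. How reads with several matches were counted is not given in the sources used here. Of the 30 nuclear genes called at 20 mM, 8 share exon bases with another annotated gene on the same strand and 16 with a gene on the other strand.

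Between 20 mM and 10 mM 2-DG no member was called in either direction, and no gene of the 16571 was (0.0% by limma's adjusted p), while 1139 genes (6.87%) but none of the 101 tested members had an unadjusted p under 0.05. With limma-voom no member was called either. The median log2 fold change of the nuclear members between the doses was -0.01, and their 20 mM libraries lay apart from the 10 mM libraries for 0 of the 88 tested genes, against 4.71% of all genes higher and 7.15% lower. The log2 fold change of 20 mM against 10 mM was below 0 for 12 of the 13 mitochondrial genes, with a median of -0.14, and MT-CYB was the only one whose libraries did not overlap. Without the third 10 mM library, which had the highest level of 10 of the 13 genes, the median was -0.03.

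Genes that serve the chain were read from lists of related genes. Of 14 genes of cytochrome c and coenzyme Q, the mobile carriers, 4 were lower and none higher at 20 mM (median -0.08). COQ2, which joins the ring and the tail of coenzyme Q, fell from 7.24 ± 0.728 to 3.998 ± 0.123 FPKM (log2 fold change -0.72, adjusted p = 0.000285 in limma's test), PDSS1, which makes the tail, by 0.78 and COQ3, a methyltransferase of the same route, by 0.78 on the log2 scale. Of 22 assembly factors of complex IV, 5 were lower and 1, COA1 (0.27, adjusted p = 0.0142), was higher, with a median of -0.11. The lower ones included CMC1 (-0.47), COX16 (-0.41) and CMC2 (-0.33). Of 18 genes of the TCA cycle, which feeds NADH and succinate to the chain and shares complex II with it, 10 were lower and 1 was higher, with a median of -0.28. IDH2, the mitochondrial NADP-dependent isocitrate dehydrogenase, fell from 7.93 ± 0.577 to 3.40 ± 0.409 FPKM (-1.02, adjusted p = 2.56e-05) and FH, fumarase, from 12.7 ± 0.606 to 7.68 ± 0.449 (-0.66, adjusted p = 0.00017), while PC, pyruvate carboxylase, rose from 26.2 ± 2.22 to 42.8 ± 0.625 (0.69, adjusted p = 0.000205).

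Genes that make and read mitochondrial RNA were mixed. Of 16 genes of mitochondrial DNA upkeep and transcription, 3 were lower and 2 higher at 20 mM (median 0.01), among them the exonuclease MGME1 (-0.61, adjusted p = 0.00035 in limma's test), MTERF3 (-0.62, adjusted p = 0.0108) and the topoisomerase TOP1MT, which was higher (0.60, adjusted p = 0.000117). Of 20 genes of mitochondrial messenger RNA processing, 7 were lower and 2 higher (median -0.11), with PTCD3 (-0.53), PTCD2 (-0.37) and HSD17B10, a subunit of RNase P (-0.37), the largest. Of 77 mitochondrial ribosomal protein genes 19 were lower and 5 higher (median -0.14), led by MRPL1 (-0.62), MRPL12 (-0.53) and MRPL55 (-0.51). Of 10 nuclear regulators of mitochondrial genes 3 were lower and 2 higher. MYC rose from 41.0 ± 1.64 to 57.8 ± 1.21 FPKM (0.49, adjusted p = 8.86e-05), while TFEB (-0.28) and GABPB1, a subunit of the ETS factor GABP (-0.28), were lower. Of the 6 mitochondrial ribosomal and transfer RNAs tested, MT-RNR2 alone was called. By the same rule 21.6% of all genes tested were lower and 15.3% higher, and in the other lists the share of lower genes was between 18.8% for mitochondrial DNA upkeep and 55.6% for the TCA cycle.

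Most nuclear members have short messenger RNAs. For 68 of the 88 tested members the median coding transcript in GENCODE was at most 1000 bases, and 36.8% of these were lower at 20 mM, with a median of -0.24. Of the 20 longer ones 3 were lower, with a median of -0.17. Among the other genes 28.4% of 3030 with short and 23.8% of 9955 with longer transcripts were lower, with medians of -0.06 and -0.03. The part of transcript length in the members' values was not tested.

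The promoters of these genes are known for binding sites of NRF1, of ETS factors such as GABP, and of YY1. Of the 97 nuclear members, 77 matched by symbol a RefSeq promoter (GRCh38.p14) of 250 bases before and 50 after the start. On either strand, the letters GCATGCGC of the NRF1 motif stood in 15 of the 77 (19.5%) and in 3.27% of all 27305 promoters, CCGGAAG of the ETS motif in 21 (27.3%) and in 10.7%, and AAGATGGCG of the YY1 motif in 8 (10.4%) and in 1.85%. Of the 23 matched members that were lower at 20 mM, 4 had the NRF1, 7 the ETS and 2 the YY1 letters, and of the 47 tested members that were not called 11, 14 and 5 did. The median log2 fold change was -0.16 for members with and -0.23 for members without the NRF1 letters, and -0.16 and -0.23 for the ETS letters. For the YY1 letters it was -0.13 in 7 tested members with and -0.23 in 65 without them. These differences were not tested. Stretches of 3 promoters of lower genes that lie outside annotated exons are shown, since they hold an NRF1 match (NDUFB4, chr3:120596086-120596308, plus strand), 2 ETS matches (UQCR11, chr19:1605491-1605712, minus strand) and none of the 3 motifs in the member with the largest fall (NDUFAF3, chr3:49020235-49020451, plus strand). Matches are in capitals, and a match is a description of the letters and not a measured site.
NDUFB4: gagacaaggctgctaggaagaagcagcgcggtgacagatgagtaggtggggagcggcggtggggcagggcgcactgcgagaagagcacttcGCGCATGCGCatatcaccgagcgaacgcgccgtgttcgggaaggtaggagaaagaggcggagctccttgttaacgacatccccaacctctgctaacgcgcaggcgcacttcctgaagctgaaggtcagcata
UQCR11: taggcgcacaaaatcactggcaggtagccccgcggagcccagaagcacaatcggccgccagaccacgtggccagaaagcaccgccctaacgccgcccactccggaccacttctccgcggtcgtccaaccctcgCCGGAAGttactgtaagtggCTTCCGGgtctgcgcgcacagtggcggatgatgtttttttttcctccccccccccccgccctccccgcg
NDUFAF3: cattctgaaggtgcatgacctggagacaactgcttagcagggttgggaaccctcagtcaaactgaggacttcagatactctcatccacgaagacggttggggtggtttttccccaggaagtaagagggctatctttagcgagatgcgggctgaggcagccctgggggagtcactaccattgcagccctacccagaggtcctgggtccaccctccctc
In NDUFB4 the NRF1 letters match on both strands at overlapping positions, 159 to 150 bases before the start. In UQCR11 the ETS letters lie 117 to 111 and 97 to 91 bases before the start, on opposite strands. NDUFB4 had 44.8, 40.9 and 44.6 FPKM in the control, 29.8, 35.8 and 32.4 at 10 mM and 34.8, 33.7 and 32.7 at 20 mM, all treated libraries below the control (log2 fold change at 20 mM -0.35 ± 0.07, adjusted p = 0.00384 in limma's test).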

How the data were processed

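RNA was extracted from MDA-MB-231 cells and sequenced with a SMARTER mRNA-Seq library kit, 1 library per sample and 9 in all. The authors deposited 1 value per gene and library, which behaves as FPKM, on the genome build GRCh38 in the submitters' processing notes. The aligner, the counter, the annotation release and the use of strand are not given in the sources used here. The read total of each library was the value at which FPKM times GENCODE 29 exon length came out whole for many genes. This length fitted 48.6% of the genes with reads and 24 of the 97 nuclear members. For the others the shortest length that made all values whole was taken, so that wholeness was imposed there and not observed. The reads recovered in this way were 99.8% to 99.9% of the totals. Of 61552 genes, 20495 had no name.

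Values were tested as log2(FPKM + 1) with limma 3.58.1 in R 4.3.3 (trended variances, all 9 libraries in 1 fit), with Benjamini-Hochberg adjustment over 16571 genes, so that the fold changes of low genes are understated. Genes were tested if 3 libraries reached the FPKM of 10 reads in a library of median depth and all 9 together held 15 reads. Genes are called at an adjusted p under 0.05. Errors of log2 fold changes are SE from limma's shared variances, other errors are SD, with 3 libraries per group. Intervals and limits from reads cover counting error only. On simulated data for 20 mM against control, the test recovered 100% of genes changed by 1 and 82% of those changed by 0.5 on the log2 scale, and called 15 unchanged genes. The simulation gave all groups the same spread, unlike the real libraries, and changed only well-read genes. These rates may therefore not hold for the real data.

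The members and the related lists were chosen with earlier results of these data known. The text names all mitochondrial members, up to 3 called genes per complex and direction with the largest change at 20 mM, every called gene over 0.5, complex II, the isoform pairs, ATP5IF1, the untested members and up to 3 genes per list. COA1, MT-RNR1 and the other members given with values were named after these were seen. Alternatives were another pseudocount (0.1), a stricter and no filter, median-ratio scaling, mitochondrial genes left out of the total, limma-voom on recovered reads, the threshold of the study, a replicate block and each library left out.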

Additional observations from a re-analysis of the deposited data

How the results depend on the processing

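The processing was varied in 19 ways, 9 of which left out a library. Of 174 values with all libraries, the counts and medians of nuclear and mitochondrial members, 154 stayed within 1.5 times the count or 1 SD of the median, and 20 moved. Many of the 154 say little about stability. Member counts between the doses were 0 under every setting. Medians could not change with the replicate block, and the stricter filter kept the same members. On the fold change of FPKM + 1, the study's threshold gave 0 higher and 0 lower nuclear genes at 10 and 20 mM. It gave 0 lower mitochondrial genes at 20 mM. Without the filter on reads, 1 nuclear gene was higher and 14 were lower at 20 mM (14.9%, against 8.86% of all genes), and 0 mitochondrial genes were lower. Median-ratio scaling gave 15 lower nuclear and 0 lower mitochondrial genes at 20 mM and a mitochondrial median of -0.012. limma-voom gave 2 higher and 1 lower mitochondrial genes at 10 mM, and 1 higher and 2 lower at 20 mM. limma-voom with median-ratio factors, which like the rescaling to reads outside mitochondrial genes was chosen after seeing the data, gave 2 higher and 1 lower at 10 mM, 1 higher at 20 mM and a median of -0.012. The causes were not tested.

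No pairing by replicate number was seen. Libraries with the same number had correlations of deviations from -0.41 to 0.29, and those with different numbers from -0.23 to 0.52. With 3 libraries per group these values cannot exclude a pairing. With a replicate block, 20 nuclear genes were lower at 10 mM (22.7%, against 15.4% of all genes) and 23 at 20 mM (26.1%, against 19.7%). With it 0 mitochondrial genes were lower at 20 mM.

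With 1 library left out, nuclear genes at 10 mM were 2 to 3 higher and 16 to 38 lower, with medians from -0.27 to -0.11. At 20 mM they were 1 to 3 higher and 13 to 38 lower, with medians from -0.27 to -0.17. The count of 38 lower genes at either dose came without the second 10 mM library, and 20 mM gave 13 without the third 20 mM library, 17 without the first, 16 without the first control and 18 without the third control. Among all genes, 14.1% to 17.2% were lower at 10 mM and 16.6% to 23.0% at 20 mM. The 13 and the 16 nuclear genes (14.8% and 18.2%) were below the shares of all genes in the same fits (17.5% and 19.4%). Mitochondrial genes were 0 higher throughout and 0 to 1 lower at 20 mM, with medians from -0.12 to -0.067 at 20 mM, and from -0.05 (without the third 10 mM library) to 0.19 at 10 mM. Between the doses 0 members were called, with medians from -0.08 to 0.05 for nuclear and -0.23 to -0.03 for mitochondrial genes. Of 108 values of 36 named members, none that was called changed sign. The call of MT-ND5 at 20 mM was lost without the second control, the third control or any 1 of the 20 mM libraries.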
